A study of Mus musculus with 45 samples.

Results

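The genes described here encode the nuclear-encoded subunits of the oxidative phosphorylation complexes of mitochondria. They were chosen by name: every protein-coding gene whose symbol begins with Ndufa, Ndufb, Ndufc, Ndufs or Ndufv and a digit, with Uqcr, with Cox4 to Cox8, or with Atp5. The rule found 80 genes among the 36172 genes of the deposited tables, and no measured value entered it. Of these, 35 belong to complex I, 8 to complex III, 20 to complex IV and 15 to complex V. The remaining 2, Atp5s and Atp5sl, carry the Atp5 name but are not subunits of the ATP synthase itself.

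Male and female mice of 3 months had been given tamoxifen or the vehicle, sunflower oil, and RNA of their retina, cortex and hippocampus was sequenced. Tamoxifen binds oestrogen receptors and is widely given to mice to activate tamoxifen-dependent Cre recombinases. Samples carry 15 numbers that recur in the 3 tissues, and the labels do not say whether a number stands for 1 mouse. Strain, dose and the interval from treatment to tissue collection do not appear in the labels. In the cortex, 4 tamoxifen females, 3 vehicle females, 3 tamoxifen males and 4 vehicle males were used. The cortex library numbered 962, which held almost no counts, was left out. The hippocampus had 4 tamoxifen females, 3 vehicle females, 4 tamoxifen males and 3 vehicle males, and the retina 4, 3, 4 and 4 in the same order. The hippocampus sample numbered 965, a vehicle male, was not analysed here. Total counts ranged from 9143811 to 44153244 per library with a median of 16106507, and hippocampus libraries were the deepest, from 31154309 upwards. The tissue labels were checked on photoreceptor markers: 18 rod genes summed to 59736 to 70409 CPM, the count of a gene scaled to library size, in the retina, 25.5 to 115 in the cortex and 17.8 to 22.4 in the hippocampus. Choroid plexus transcripts were abundant in the cortex of libraries 958, 960 and 965 and in the hippocampus of libraries 951, 958 and 962. Lens transcripts were abundant in the retina of libraries 951, 959 and 962. The labels do not say how the tissues were dissected.

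Complex I oxidises NADH, complex III passes electrons from ubiquinol to cytochrome c, and complex IV, cytochrome c oxidase, reduces oxygen. Together they pump the protons that drive complex V, the ATP synthase. Neurons and photoreceptors rely heavily on this pathway to pay for ion pumping. Each complex has catalytic core subunits and a larger number of accessory subunits, and several accessory subunits of complex IV exist as alternative isoforms with tissue-restricted expression. The subunits encoded by mitochondrial DNA and those of complex II are not among the genes chosen.

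Promoter sequences were available for 66 of the 80 genes, as 250 bases before to 50 after the start site, from RefSeq on GRCm38.p6. They were searched on both strands for a palindromic site word, 10 bases long, of NRF1, a transcription factor known for its part in respiratory gene expression. The word was in 5 of the 66 promoters, or 7.58%, against 1.07% of all 27025 promoters in the table and 1.51% of the promoters of protein-coding genes in the deposited tables. The windows that lie wholly before the start site are shown with the word in capitals and 20 bases on each side, 5′ to 3′ on the gene's strand. Cox6a1 and Atp5g2 are among the genes that differed between the sexes in the hippocampus. All of the genes shown differed between tissues, as did all but 2 of the subunit genes tested. A link between the word and these differences was not tested.
Atp5g2, chr15:102671060-102671109, minus strand: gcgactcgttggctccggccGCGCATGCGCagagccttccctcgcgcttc
Atp5k, chr5:108434420-108434469, minus strand: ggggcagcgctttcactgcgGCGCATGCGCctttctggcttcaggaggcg
Cox6a1, chr5:115349091-115349140, minus strand: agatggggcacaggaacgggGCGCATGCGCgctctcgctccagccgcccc
Ndufa11, chr17:56717682-56717731, plus strand: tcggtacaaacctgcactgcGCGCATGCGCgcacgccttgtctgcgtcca

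The word AAGATGGC, a site of the transcription factor YY1, was in 11 of the 66 promoters (16.7%). It was in 3.19% of all promoters and 3.65% of those of protein-coding genes. It occurred in 7 of 31 complex I promoters and 3 of 14 complex V promoters, and in none of the 5 complex III or 14 complex IV promoters. Most matches did not lie wholly before the start site. One window before a start site is that of Atp5j, which encodes a peripheral stalk subunit of the ATP synthase. It lies inside the annotated gene, before an internal start, and the Atp5j promoter at chr16:84835576-84835875 lacks the word. The window is shown with the word in capitals.
Atp5j, chr16:84835037-84835084, minus strand: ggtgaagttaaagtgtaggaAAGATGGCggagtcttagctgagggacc

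The shorter NRF1 word GCATGCGC, which the 10-base word contains, was in 9 of the 66 promoters (13.6%) against 3.05% of all promoters and 4.09% of those of protein-coding genes. For the other words the shares of the 66 and of all promoters were 7.58% against 4.31% for CCGGAAGT (an ETS factor site), 4.55% against 1.76% for CAAGGTCA (an oestrogen-related receptor site), 39.4% against 38.2% for the GC box GGGCGG (50.6% of promoters of protein-coding genes), and 10.6% against 15.7% for TATAAA. A match describes letters only, and binding was not measured.

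The cortex carried the most subunit transcript. The chosen genes together took 1.10% ± 0.0352 (SD, n = 14 libraries) of all counts in the cortex, 0.806% ± 0.0705 (n = 14) in the hippocampus and 0.841% ± 0.0375 (n = 15) in the retina. The cortex libraries lay between 1.05% and 1.16%, above every hippocampus library (0.619% to 0.936%) and every retina library (0.752% to 0.900%). In bulk tissue, fewer cells of a type and less RNA per cell cannot be told apart. The mean log2(CPM + 1) of the complex I subunits was 6.38 in cortex, 6.01 in hippocampus and 5.95 in retina, and that of complex V was 7.52, 7.08 and 7.09. Complexes III and IV followed the same order of cortex above the other tissues, at 7.0, 6.58 and 6.51 for complex III and 5.46, 5.08 and 5.13 for complex IV. The complex IV mean takes in alternative isoforms, most of them at a few CPM or less in the brain regions. It is therefore not comparable with the means of the other complexes, and isoforms higher in the retina enter its retina value. One hippocampus library stood apart: library 957, a vehicle female, had a complex I mean of 5.60, while the other 13 lay between 5.90 and 6.21. Its cytosolic ribosomal protein genes were low as well, at a mean of 6.26 against 6.67 to 6.99 in the others, and its total of 36659421 counts was within the range of the tissue.

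**Figure D1:**
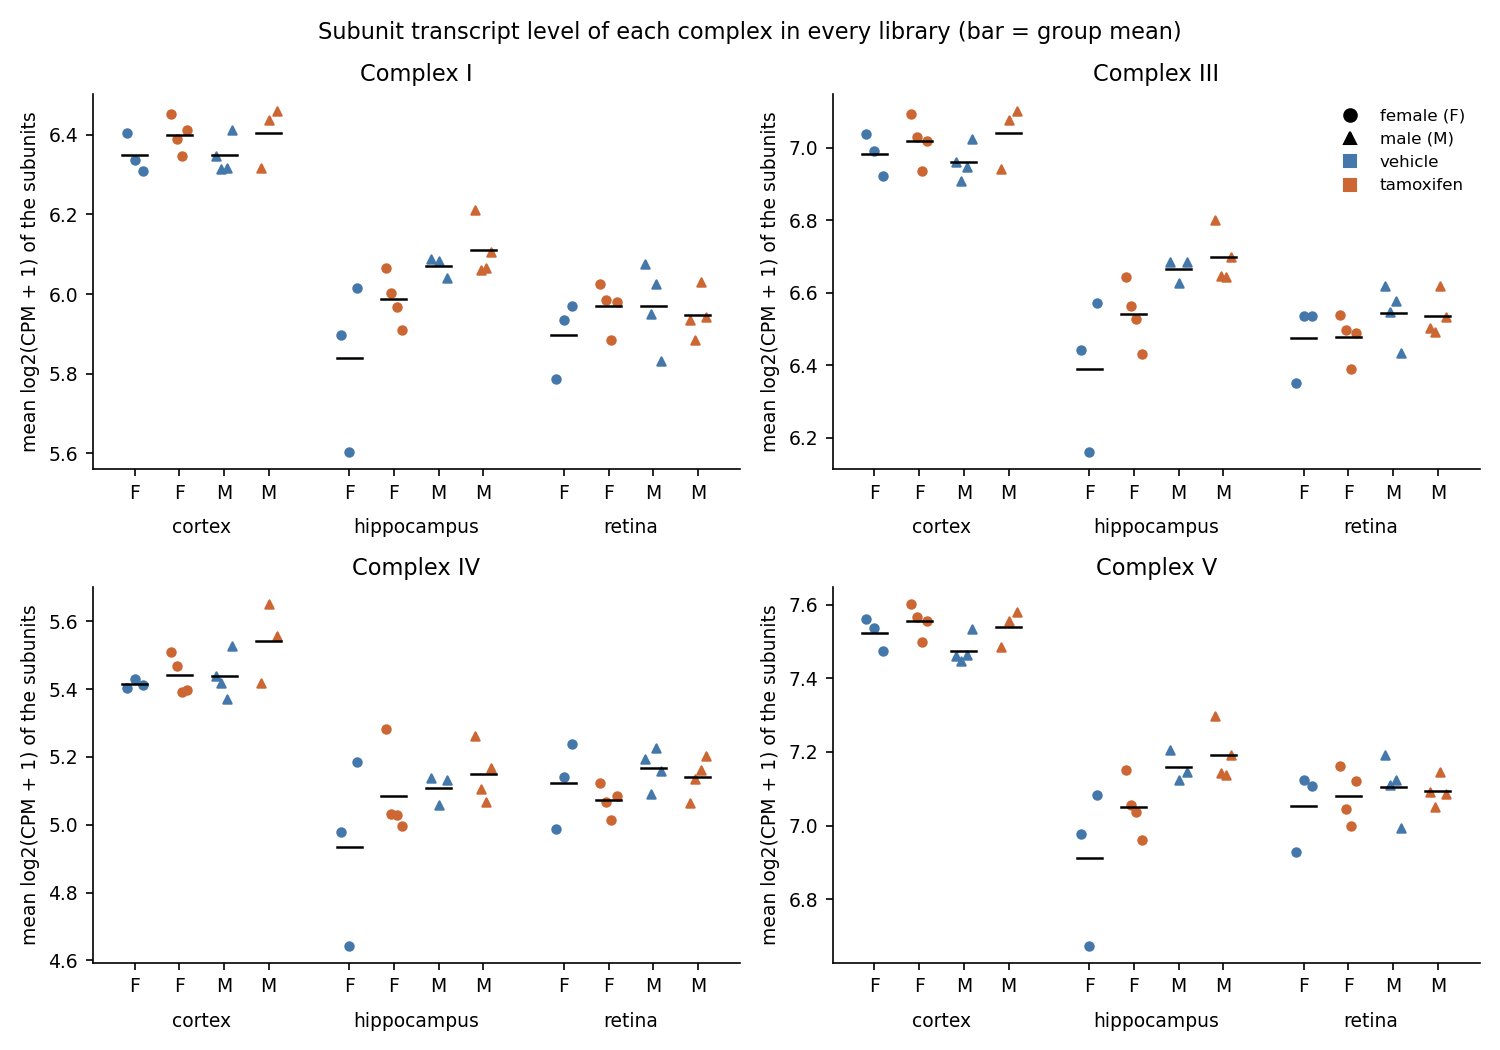
Mean log2(CPM + 1) of the subunits of complexes I, III, IV and V (y axis) in every library, by tissue, sex and treatment (x axis); circles are females, triangles males, colours the treatment, and bars group means. Cortex libraries are the highest in all 4 complexes, and the low female vehicle point in the hippocampus is library 957, at 5.60 for complex I.

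Within a complex, transcript levels were far from equal. Levels are compared between genes as CPM per kilobase of transcript, in vehicle animals (n = 7 cortex, 6 hippocampus, 7 retina libraries). In the cortex the complex I subunits ran from 31.8 for Ndufv3, an accessory subunit of the NADH-binding module, to 203 for Ndufb9, with a median of 94.7. The core subunits Ndufs1, which carries iron-sulphur clusters, and Ndufv1, which binds NADH, were at 76.7 ± 2.94 and 109 ± 4.69 (SD). Complex III ran from 49.2 for Uqcrq to 304 for Uqcrh, the hinge protein, around a median of 163. The common subunits of complex IV had the highest median of the 4 complexes, 257, with Cox4i1 at 535 ± 30.5 and Cox5a at 193 ± 9.83. Atp5b, the catalytic beta subunit of the ATP synthase, was the most abundant per kilobase in all 3 tissues: 683 ± 21.6 in cortex, 507 ± 40.3 in hippocampus and 599 ± 36.4 in retina. The alpha subunit Atp5a1 was at 416 ± 12.7, 318 ± 30.8 and 306 ± 23.0. The common complex IV subunits had the highest median in the other tissues as well, at 205 in the hippocampus against 157 for complex V and 137 in the retina against 127. In the retina the complex IV-associated subunit Ndufa4, at 360 ± 25.1, stood above Cox4i1, at 281 ± 15.1, whereas Cox4i1 was above Ndufa4 in both brain regions. These ratios depend on the transcript model taken for the length, and for Ndufc1, Ndufb2, Atp5d, Atp5g1, Ndufa11 and Ndufb8 the models differ in length by more than 1.5 times.

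In the hippocampus of vehicle animals the subunit genes were lower than in the cortex almost throughout. Of the 78 genes tested, 69 were lower and 1 was higher (edgeR quasi-likelihood test, Benjamini-Hochberg adjusted p under 0.05 over 15900 genes), where 58.1% of all genes tested differed, 28.3% lower and 29.7% higher. Their median log2 difference was -0.41, where that of all genes was 0.00. The lower genes were 33 of 35 in complex I, 8 of 8 in complex III, 14 of 18 in complex IV and 14 of 15 in complex V. All 11 common complex IV subunits were lower, with a median of -0.59.

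The complex I member with the greatest difference was Ndufs6, a zinc-binding subunit, at 44.2 to 52.4 CPM (median 48.3) in the cortex and 17 to 34.3 CPM (median 27.5) in the hippocampus. The ranges do not overlap, and its log2 difference was -0.89 ± 0.08 (SE, adjusted p = 2.8e-12). Ndufb3 (-0.80) and Ndufb5 (-0.67) came next. In complex III, Uqcrh had a median of 163 CPM in the cortex (153 to 183) and 105 in the hippocampus (72.2 to 106), a log2 difference of -0.76 ± 0.06 (adjusted p = 8.9e-14), and Uqcrb had -0.76 as well. The core proteins Uqcrc1 and Uqcrfs1, the Rieske iron-sulphur protein, differed less, at -0.37 and -0.27. In complex IV, the small structural subunit Cox6c had a median of 190 CPM in the cortex (173 to 197) and 106 in the hippocampus (73.4 to 118), a log2 difference of -0.87 ± 0.07 (adjusted p = 7.3e-14). Cox7c (-0.73), Cox4i1 (-0.59) and Cox5a (-0.45) were also lower. In complex V the members of greatest difference were the small subunits Atp5k (-0.70), Atp5j (-0.63) and Atp5e (-0.62), while Atp5a1 and Atp5b were at -0.39 and -0.43. Ndufa10 alone was higher in the hippocampus, at 129 to 148 CPM against 118 to 132 in the cortex. That difference, 0.12 ± 0.04 (adjusted p = 0.023), did not pass with number 966 left out of every tissue (adjusted p = 0.083). It did not pass without the libraries rich in choroid plexus or lens transcripts (adjusted p = 0.081) or with library totals alone (adjusted p = 0.15). Nor did it pass with cortex library 962 included (adjusted p = 0.064) or with the sample number as a block (adjusted p = 0.057).

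Transcript length moved with this contrast. The chosen genes are short, with a median transcript of 729 bases against 2411 for all protein-coding genes of the tables. Among other genes the median difference between hippocampus and cortex ran from -0.26 below 500 bases to 0.37 above 8000 bases. In a fit with each library's length trend removed, 37 of the subunit genes were lower and 7 higher, with a median of -0.12, where 53.5% of all genes tested differed. With number 957 left out of every tissue, 61 were lower and 1 higher, with a median of -0.35, and the share of all genes in that fit is not given. Other short-transcript genes moved the same way: of 76 cytosolic ribosomal protein genes, 72 were lower and 2 higher (median -0.52). The part of RNA quality or library preparation in this difference was not tested.

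In the retina of vehicle animals, 64 of the 78 genes were lower than in the cortex and 6 were higher, with a median log2 difference of -0.48. These 2 tissues differed in 83.3% of all genes tested, 41.5% of them lower and 41.8% higher, and the median of all genes was 0.02. Medians were -0.48 in complex I, -0.52 in complex III, -0.82 in the common complex IV subunits and -0.43 in complex V. Removal of the length trend left 63 lower and 8 higher, with a median of -0.42, and the share of all genes in that fit is not given. The cytosolic ribosomal protein genes, by contrast with the hippocampus, had 22 higher and 24 lower, with a median of -0.0047.

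Among the genes lower in the retina, and apart from Cox6a2 described with the isoforms, those of greatest difference were in complex IV. Cox6a1, a regulatory subunit, had a median of 189 CPM in the cortex (186 to 208) and 75 in the retina (69.6 to 84.8), a log2 difference of -1.34 ± 0.07 (adjusted p = 5.8e-21). Cox8a was at 236 to 267 CPM in the cortex and 101 to 142 in the retina, or -1.02 ± 0.09 (adjusted p = 9.0e-14), and Cox4i1 was at -0.93. Neither pair of ranges overlaps. Ndufa4 was the one common complex IV subunit that did not pass, at 201 to 240 CPM in the cortex and 199 to 242 in the retina (-0.01 ± 0.06, adjusted p = 0.87). Of the lower genes of complex I, those of greatest difference were Ndufa8 (-0.91), Ndufb9 (-0.79) and Ndufa3 (-0.78), in complex III Uqcr11 (-0.95), Uqcr10 (-0.70) and Uqcrc2 (-0.55), and in complex V Atp5d (-0.75), Atp5g1 (-0.74) and Atp5o (-0.70). Core subunits were lower too, Ndufs1 by a log2 difference of -0.48, Ndufv1 of -0.24 and Uqcrfs1 of -0.54. Atp5b was close to its cortex level, with a difference of -0.19 ± 0.04 (adjusted p = 2.3e-05).

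The 6 genes higher in the retina than in the cortex were Cox4i2, Cox8b, Cox6b2 and Cox7a1, which are alternative isoforms of complex IV, and the complex I accessory genes Ndufv3 and Ndufb11. All 6 were also higher in the retina than in the hippocampus. Ndufv3 had 80.2 to 98.9 CPM in the retina (median 86.7), 44.8 to 54.0 in the cortex and 40.0 to 59.5 in the hippocampus. The retina range lies above both of the others, with log2 differences of 0.80 ± 0.06 from the cortex and 0.76 ± 0.06 from the hippocampus (adjusted p = 4.7e-15 and 3.0e-14). Its level per kilobase rests on 1 of 2 protein-coding models. Ndufb11, an X-linked gene, had 86.3 to 105 CPM in the retina and 73.4 to 90.0 in the cortex (0.23 ± 0.07, adjusted p = 0.0021).

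Between retina and hippocampus the genes split, 30 higher and 33 lower in the retina, with a median of -0.06, and 84.2% of all genes tested differed, 43.1% higher and 41.1% lower. The split followed the scaling. With library totals alone, which moved the median of all genes from 0.03 to 0.14, it was 34 higher and 26 lower, and with the length trend removed 15 higher and 50 lower. The shares of all genes under these settings are not given. Members of each direction follow. Uqcrb had 85.8 to 105 CPM in the retina and 43.7 to 63.1 in the hippocampus (0.82 ± 0.07, adjusted p = 2.6e-13). Cox5b had 70.9 to 84.4 CPM in the retina and 93.0 to 141 in the hippocampus (-0.68 ± 0.06, adjusted p = 2.8e-13), and Ndufa8, Uqcr11 and Atp5d were at -0.67, -0.61 and -0.65. Atp5g2 (0.48) and Ndufs6 (0.49) were higher in the retina. Atp5e was at 0.29 (adjusted p = 0.0040), and at 0.13 without number 957 (adjusted p = 0.12).

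Taking the contrasts against the cortex together, which share the cortex libraries, 61 genes were lower in both the hippocampus and the retina. There were 33 genes lower in the retina than in either brain region: 16 in complex I, 5 in complex III, 8 in complex IV, 3 in complex V, and Atp5s. The share of all genes that met either joint condition was not computed, so these counts have no background. Singly, 28.3% of all genes tested were lower in the hippocampus and 41.5% in the retina than in the cortex. In the retina against the hippocampus, 41.1% were lower. Ndufa4l2 and Atp5sl were called in no tissue contrast.

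**Figure D2:**
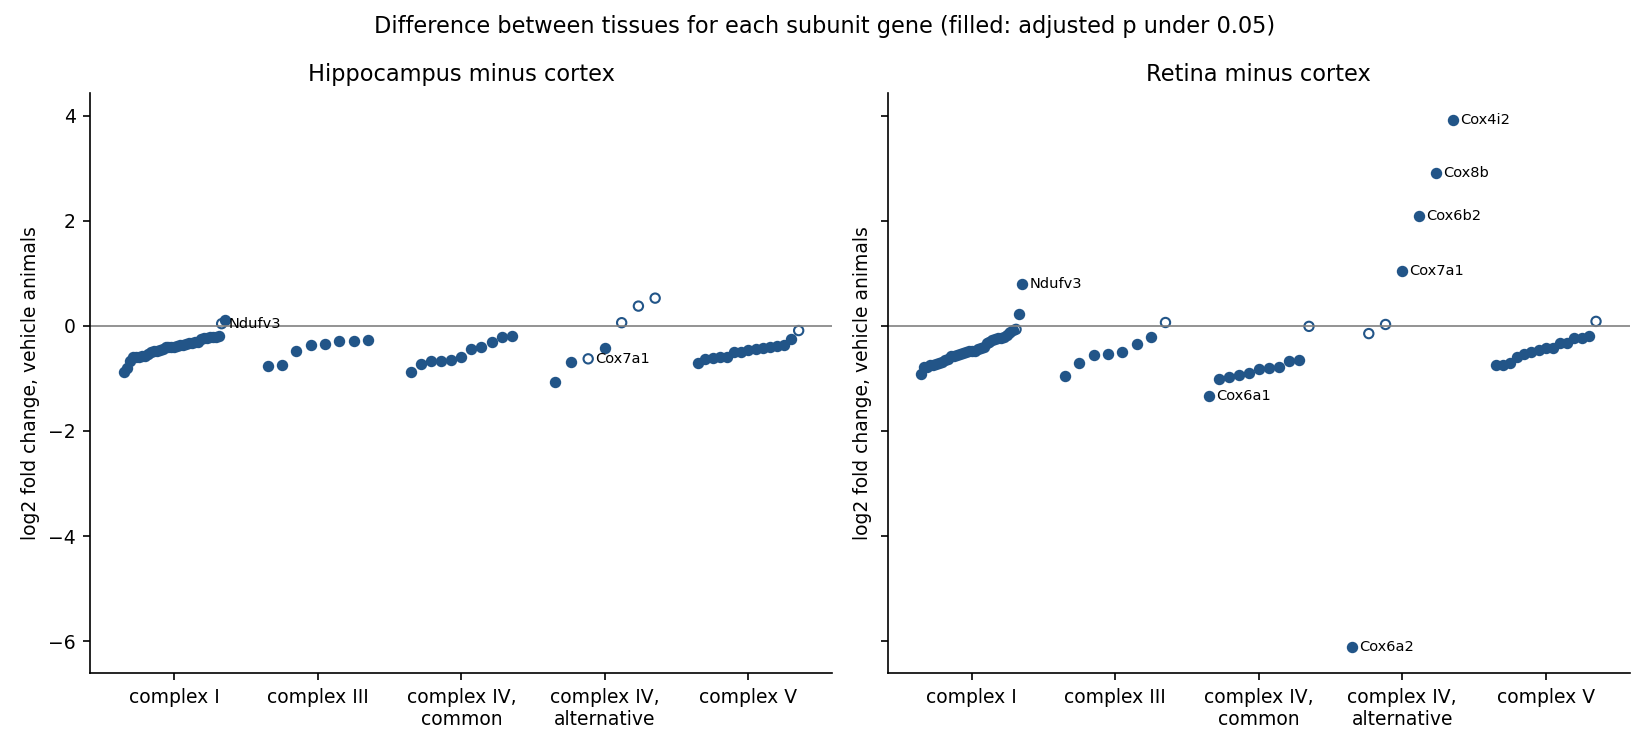
Log2 fold change of each subunit gene in vehicle animals (y axis), by complex (x axis), for hippocampus minus cortex and retina minus cortex. Each point is a gene, and filled points have an adjusted p under 0.05. Most points lie below 0 in both contrasts with the cortex (medians -0.41 and -0.48), and the few far above 0 in the retina are alternative complex IV isoforms.

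Other genes of the pathway were followed as lists. In the retina against the cortex, 3 of the 4 complex II genes were lower and 1 higher. Of 17 genes of the pyruvate dehydrogenase complex and tricarboxylic acid cycle, 16 were lower (median -0.68), while 13 of 17 glycolytic genes were higher and 4 lower (median 0.52). Of 34 assembly factors of the complexes, 7 were higher and 17 lower, and of 76 mitochondrial ribosomal protein genes 7 were higher and 47 lower. Among 16 regulators of mitochondrial genes, 10 were higher and 3 lower. Of 6 further respiratory chain genes outside the naming pattern, such as Cyc1 and Cycs, 5 were lower (median -0.81). Cell types differ between the tissues: 18 of 18 rod markers were higher in the retina, 9 of 11 neuronal, 7 of 7 oligodendrocyte and 7 of 7 microglial markers were lower, and of 9 vascular markers 4 were higher and 5 lower. Their part in the subunit differences was not tested. In the hippocampus against the cortex, 4 of 4 complex II genes, 10 of 17 of the cycle and 13 of 17 of glycolysis were lower.

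Cox4i2, Cox6b2, Cox7a1 and Cox8b, alternative isoforms of complex IV, made up a larger mean share of their sets in the retina than in either brain region, and Cox6a2, Cox7b2 and Ndufa4l2 a smaller one. Cox4i2, the isoform of Cox4i1 known from lung and for its part in oxygen sensing, had 16.4 to 22.0 CPM in the retina (median 19.3), 0.904 to 1.78 in the cortex and 0.350 to 1.18 in the hippocampus. The retina range lies above both of the others, and the log2 differences were 3.92 ± 0.17 and 4.61 ± 0.17 (adjusted p = 9.7e-24 and 6.0e-26). Per kilobase, Cox4i2 made up 8.55% ± 0.706 (SD, n = 7) of the Cox4i1 and Cox4i2 sum in the retina, 0.329% ± 0.0752 in the cortex and 0.304% ± 0.0966 in the hippocampus. Across all 15 retina libraries, both treatments included, the share lay between 7.72% and 10.4%.

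Cox6b2, the isoform known from testis, had 4.17 to 8.10 CPM in the retina, 0.753 to 2.25 in the cortex and 0.583 to 3.92 in the hippocampus, and its log2 differences were 2.10 ± 0.31 and 1.72 ± 0.30 (adjusted p = 1.2e-07 and 1.6e-06). Its share of the pair was 6.73% ± 1.54 in the retina, 0.961% ± 0.438 in the cortex and 1.43% ± 0.791 in the hippocampus. Cox7a1, the heart and skeletal muscle isoform, had 1.60 to 3.71 CPM in the retina, 0.398 to 1.81 in the cortex and 0.464 to 1.12 in the hippocampus. Its ranges in the retina and cortex overlap, and the differences were 1.04 ± 0.29 from the cortex and 1.67 ± 0.29 from the hippocampus (adjusted p = 0.0012 and 1.9e-06). It made up 4.19% ± 1.09 of the Cox7a1 and Cox7a2 sum in the retina, 1.4% ± 0.587 in the cortex and 1.42% ± 0.418 in the hippocampus.

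Cox6a2, the heart and muscle isoform of Cox6a1, went the other way. It had 4.38 to 7.22 CPM in the cortex (median 6.45) and 2.13 to 4.18 in the hippocampus, while the 15 retina libraries held 18 counts in all and 5 of them held none. The log2 difference of hippocampus and cortex was -1.07 ± 0.17 (adjusted p = 1.1e-06) and that of retina and cortex -6.11 ± 0.30 (adjusted p = 1.4e-21), the latter fitted on 0 to 2 counts per retina library. Its share of the Cox6a1 and Cox6a2 sum was 2.65% ± 0.355 in the cortex and 1.46% ± 0.211 in the hippocampus. A list of 10 skeletal muscle genes, which includes Pvalb, a gene also known from inhibitory interneurons, summed to 68.5 to 93.9 CPM in cortex, 26.8 to 43.9 in hippocampus and 20.1 to 29.1 in retina. Their part in the Cox6a2 order was not tested.

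Cox8b, the muscle and brown fat isoform of Cox8a, was low and uneven. Vehicle retinas had 0.690 to 5.91 CPM (median 2.14), and the log2 differences from the cortex and hippocampus were 2.90 ± 0.83 and 2.38 ± 0.76 (adjusted p = 0.0016 and 0.0045). In the brain its highest values sat in libraries rich in choroid plexus transcripts, but not every such library was high. Hippocampus libraries 951, 958 and 962 had 3.43, 3.45 and 1.04 CPM, and the other 11 had 0.0471 to 0.507. The 15 choroid plexus genes summed to 2703, 3050 and 1424 CPM in those 3 libraries, and to no more than 194 in the others. In the cortex, library 960 had 3.08 CPM of Cox8b with a choroid plexus sum of 3325, while the others had 0 to 0.696. Cortex libraries 958 and 965, also rich in choroid plexus transcripts, had 0.696 and 0.0994 CPM. Library 963, which was not, had 0.693. Cox6b2 was highest in hippocampus 951 and 958, at 3.25 and 3.92 CPM, and in cortex 960, at 2.90. In the other libraries rich in choroid plexus transcripts it had 1.71 CPM in hippocampus 962, 1.46 in cortex 958 and 2.14 in cortex 965, within the range of the remaining libraries, which reached 1.93 in the hippocampus and 2.25 in the cortex. Without the libraries rich in choroid plexus or lens transcripts, the retina differences of Cox8b were 3.68 from the cortex and 3.98 from the hippocampus. That setting left out brain libraries by choroid plexus transcripts but retina libraries by lens transcripts alone. Retina libraries summed to 543 to 733 CPM on the same 15 choroid plexus genes. The part of these transcripts in retinal Cox8b was not tested.

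Of the remaining isoforms, Cox7b2 had 43 counts in all 14 cortex libraries together, 118 in the hippocampus and 11 in the retina, and it passed the filter on low counts in the hippocampus alone. Cox8c had no count in any of the 43 libraries. A count of 0 allows up to 3 counts over a tissue, or 0.0143 CPM in cortex, 0.00623 in hippocampus and 0.0145 in retina, for counting error alone. Ndufa4l2 had similar medians of 1.88, 1.96 and 1.74 CPM in the cortex, hippocampus and retina. Cox7a2l, which is known to join respiratory complexes into supercomplexes, had 139 to 172 CPM in the retina and 148 to 172 in the cortex (0.03 ± 0.05, adjusted p = 0.66). It was lower in the hippocampus, at 92.3 to 133 CPM (-0.43 ± 0.05, adjusted p = 5.9e-09).

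**Figure D3:**
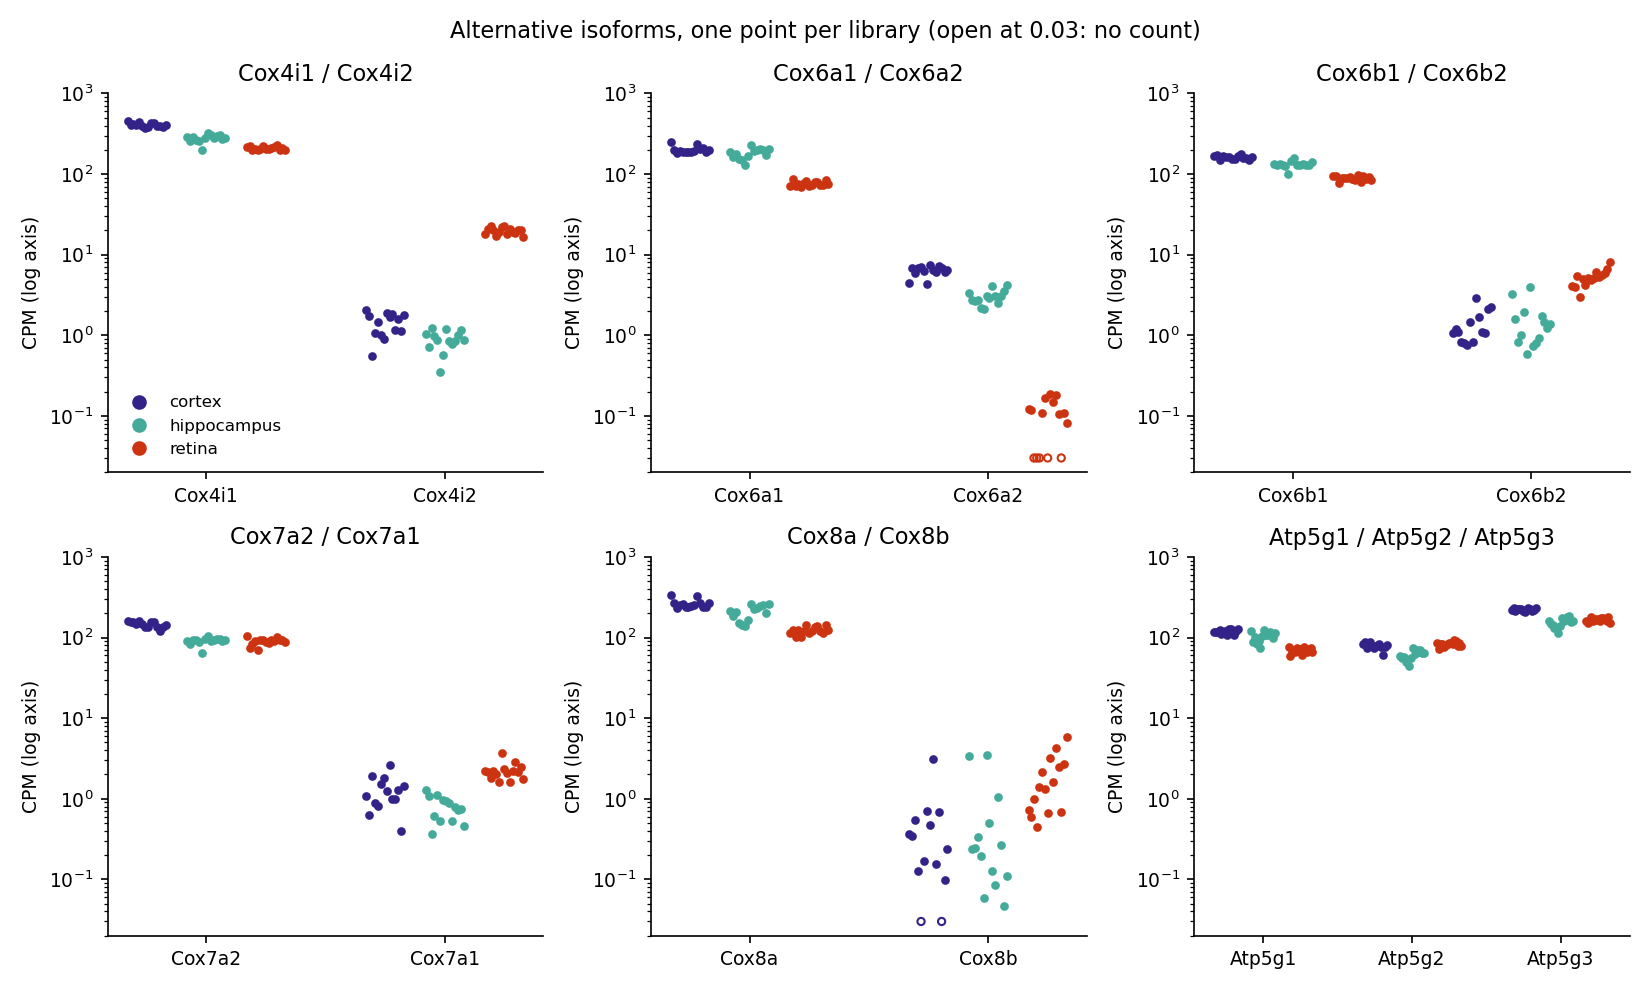
CPM on a log axis (y axis) of the isoforms in each set of paralogous subunits (x axis), 1 point per library, coloured by tissue; open points at 0.03 have no count. Cox4i2 in the retina lies apart from both brain regions, Cox6a2 is near 0 in the retina, and the highest brain points of Cox8b are libraries rich in choroid plexus transcripts.

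Subunit c of the ATP synthase, the ring that turns as protons pass, is made from 3 genes whose mature proteins are known to be the same. Their coding ends are therefore similar, which can matter for how reads are shared among them. The last 120 coding bases before the stop codon are shown from the GENCODE transcripts of GRCm38, with the 30 positions at which the 3 are not all alike in capitals.
Atp5g1, chr11:96072793-96075694: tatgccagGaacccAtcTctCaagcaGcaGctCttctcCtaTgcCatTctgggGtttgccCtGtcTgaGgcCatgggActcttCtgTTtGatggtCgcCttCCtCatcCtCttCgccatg
Atp5g2, chr15:102662868-102671047: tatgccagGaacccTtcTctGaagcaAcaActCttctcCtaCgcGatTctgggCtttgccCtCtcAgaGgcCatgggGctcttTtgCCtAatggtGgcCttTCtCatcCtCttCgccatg
Atp5g3, chr2:73908450-73911294: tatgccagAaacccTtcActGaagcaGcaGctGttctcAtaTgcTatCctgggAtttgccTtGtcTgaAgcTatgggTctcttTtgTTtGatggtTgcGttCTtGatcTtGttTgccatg

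Over these bases Atp5g1 and Atp5g2 were identical at 86.7%, Atp5g1 and Atp5g3 at 82.5% and Atp5g2 and Atp5g3 at 77.5%, with longest identical runs of 18, 11 and 8 bases. The 3 are thus similar but not near-identical here. The labels do not say how reads were assigned among them, and any effect on the shares was not tested. Per kilobase, Atp5g3 was the largest share of the 3 in every tissue, at 50.8% ± 1.26 (SD) in cortex, 45.5% ± 1.43 in hippocampus and 50.2% ± 0.557 in retina. Atp5g1 made up 32.2% ± 1.12, 36.7% ± 1.77 and 25.6% ± 1.04. Atp5g2 made up 17% ± 1.38, 17.7% ± 0.604 and 24.2% ± 1.01, so that in the retina Atp5g1 and Atp5g2 were near parity. The retina range of the Atp5g2 share, 23.2% to 26.3%, lies above those of the cortex (14.7% to 19.4%) and hippocampus (17.1% to 18.9%).

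Tamoxifen did not change any of the subunit genes at the threshold. No gene of the 78 tested in the cortex, 79 in the hippocampus or 77 in the retina passed (edgeR quasi-likelihood test, sexes averaged), against 0.606%, 0.0652% and 0.0474% of all genes tested. Unadjusted p-values under 0.05 numbered 6 in cortex, 5 in hippocampus and 3 in retina. The share of all genes under that limit is not given, so counts at an unadjusted p have no background. DESeq2 called 1 gene in the cortex, where it called 178 of all 14680 genes tested, and 0 in the other tissues. No gene passed in females or males alone in any tissue, where 0.375% and 0.0272% of all genes did in cortex, 0.013% and 0.0% in hippocampus and 0.0406% and 0.0% in retina. At an unadjusted p under 0.05 these were 3 and 6 genes in cortex, 12 and 1 in hippocampus and 4 and 1 in retina, and DESeq2 called 0 of them. The effect differed between the sexes for 0 genes in each tissue by edgeR and DESeq2, where 0.0% of all genes passed, with 0, 3 and 2 at an unadjusted p under 0.05 in the cortex, hippocampus and retina. No gene passed the test of whether the effect differed between the tissues (0.0126% of all genes). DESeq2 called 0, and 2 of the 78 had an edgeR unadjusted p under 0.05. In no tissue did all tamoxifen libraries lie above or below all vehicle libraries for any of the genes. Of all genes tested, 0.177% lay above and 0.286% below in cortex, 0.0587% and 0.13% in hippocampus and 0.0541% and 0.101% in retina.

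In the cortex 68 of 78 estimates were above 0, with a median log2 difference of 0.05, where that of all genes was 0.01. The smallest p belonged to Ndufb4, a complex I accessory subunit. Its CPM was 76.2, 67.6, 68.9 and 70.5 in tamoxifen females and 64.1, 60.3 and 62.1 in vehicle females. In males it was 62.9, 79.5 and 78.5 with tamoxifen and 62.6, 61.1, 60.8 and 65.7 with vehicle. The tamoxifen females lie above the vehicle females, while male 959 lies among the vehicle males. The log2 difference was 0.21 ± 0.05 (SE), with an edgeR adjusted p of 0.081, of 0.0065 without library 959 and of 0.017 by DESeq2. Without the libraries rich in choroid plexus or lens transcripts the adjusted p was 0.67. The next by p, none of which passed, were Atp5k (0.12, adjusted p = 0.37), Uqcrh (0.10), Ndufv3 (0.11) and Atp5l (0.09).

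In the hippocampus 77 of 79 estimates were above 0, with a median of 0.10 where that of all genes was 0.00. The median was 0.15 in females and 0.03 in males. The 5 smallest p belonged to Ndufb2 (0.20 ± 0.07, adjusted p = 0.52), Cox5a (0.17), Cox8a (0.19), Uqcrfs1 (0.12) and Cox6a1 (0.15). Ndufb2 had 32.7, 35.5, 29.5 and 26.6 CPM in tamoxifen females and 26.2, 21.4 and 27.3 in vehicle females, against 40.7, 34.6, 37.9 and 37.1 and 37.8, 33.7 and 34.9 in tamoxifen and vehicle males. The lowest value, 21.4, is that of library 957. Without library 957 the median over the genes was 0.03 with sexes averaged and 0.03 in females, and with the length trend removed it was 0.02. Other genes shorter than 500 bases had a median of 0.08, and 76 of 77 cytosolic ribosomal protein genes were above 0 (median 0.12). In the cortex the length trend left a median of 0.02, and 74 of 76 ribosomal protein genes were above 0 (median 0.07).

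In the retina 44 of 77 estimates were above 0, with a median of 0.01. The 5 smallest p were those of Ndufc1 (0.13 ± 0.05, adjusted p = 0.64), Ndufa2 (0.12), Ndufs7 (0.11), Cox8b (-0.76 ± 0.42) and Cox6b2 (-0.25 ± 0.14). Ndufc1 had 38.2, 32.8, 36.9 and 36.6 CPM in tamoxifen females and 33.1, 31.0 and 31.4 in vehicle females, and 34.0, 35.4, 37.7 and 38.5 and 37.1, 32.3, 34.4 and 34.7 in tamoxifen and vehicle males. The groups overlap in both sexes. Of the other pathway lists, complex II, the assembly factors, the cycle, glycolysis, the regulators and both ribosomes had no gene past the threshold for tamoxifen in any tissue with sexes averaged.

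**Figure D4:**
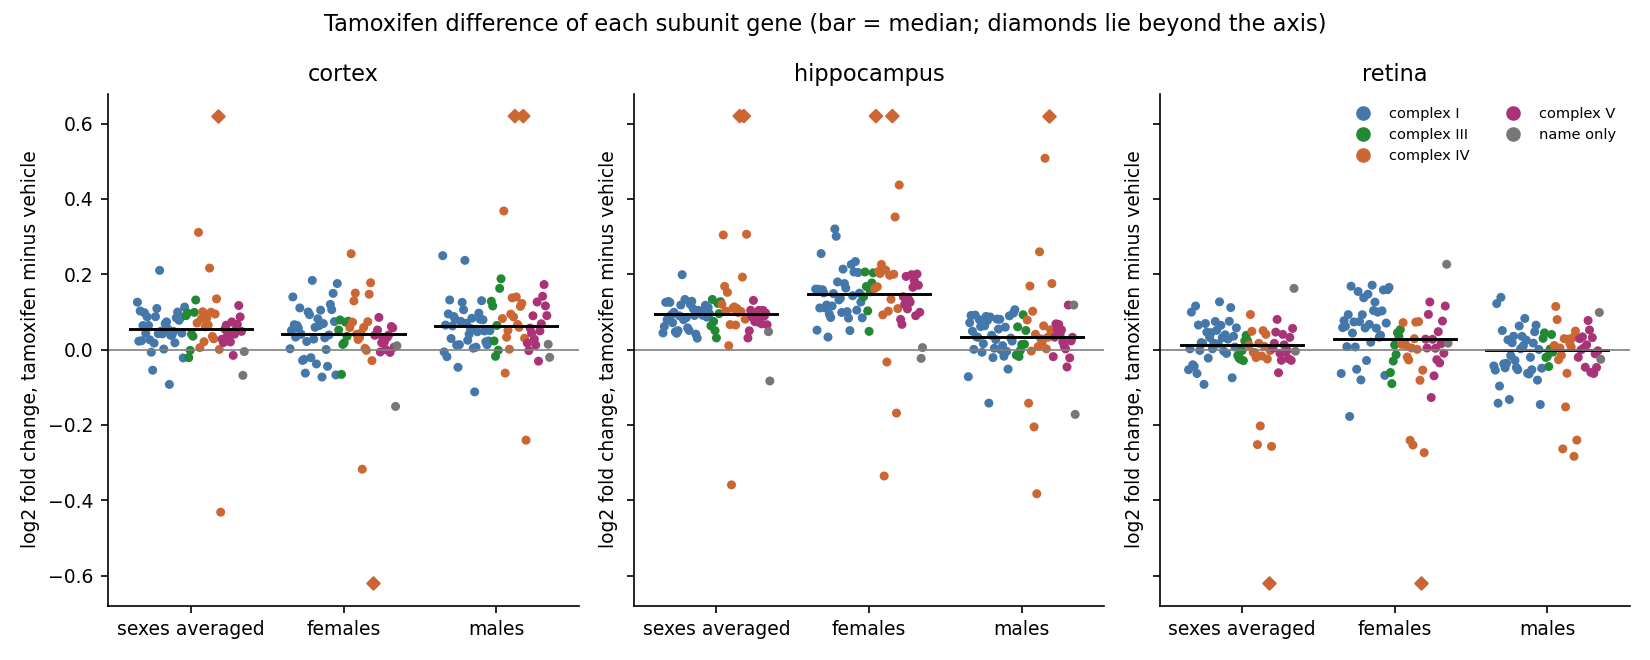
Log2 fold change of each subunit gene, tamoxifen minus vehicle (y axis), with sexes averaged, in females and in males (x axis), for each tissue; points are genes coloured by complex, bars are medians, and diamonds lie beyond the axis. The points sit mostly above 0 in the hippocampus (median 0.10, females 0.15) and around 0 in the retina (median 0.01), and none passed the threshold.

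Sex differences were found in the hippocampus. With treatments averaged, 31 of the 79 genes were higher in males and 0 lower, where 17.7% of all genes tested differed, 10.6% higher and 7.12% lower. The median log2 difference, male minus female, was 0.19, against -0.01 for all genes, and 70 estimates were above 0. The genes higher in males were 14 of 35 in complex I, 5 of 8 in complex III, 5 of 19 in complex IV and 6 of 15 in complex V, with Atp5sl. In complex I they were 12 of 28 accessory and 2 of 7 core subunits, Ndufv1 (0.30) and Ndufs3 (0.22).

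Cox8a, a small complex IV subunit, had the largest difference among the genes that passed. Cox8b (-2.22 ± 0.90, adjusted p = 0.091) and Cox6b2 (-0.67, adjusted p = 0.21), further from 0, did not pass. It had 216, 186, 207 and 151 CPM in tamoxifen females and 142, 140 and 167 in vehicle females, and 261, 229, 233 and 250 in tamoxifen males and 252, 199 and 259 in vehicle males. Male 964, at 199, lies below 2 of the tamoxifen females. The log2 difference was 0.51 ± 0.08 (edgeR adjusted p = 0.0034). The complex III accessory subunits Uqcr11 (0.50) and Uqcrq (0.35) were higher in males, as were the complex I accessory subunits Ndufs6 (0.45), Ndufa13 (0.43), Ndufb3 (0.41) and Ndufb2 (0.40).

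Uqcr10, also of complex III, was at 0.32 (adjusted p = 0.037). It did not pass without any 1 of libraries 952, 953, 954, 955, 959, 961, 962, 963, 964 and 966 (adjusted p from 0.052 to 0.076), nor with the length trend removed (0.15, adjusted p = 0.077).

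In 3 of the 79 genes every male library lay above every female library: Ndufs6, Cox7c and Atp5g2. Of all 15339 genes tested, 356 (2.32%) did so. Ndufs6 had 26.1, 28.3, 22.4 and 22.6 CPM in tamoxifen females, 21.7, 17 and 25 in vehicle females, and 28.9 to 34.3 in the 7 males. Cox7c had 43.6 to 69.5 CPM in the 7 females and 77.4 to 85.3 in the 7 males (0.41 ± 0.08, adjusted p = 0.0049). Atp5g2, whose promoter holds the NRF1 word printed above, had 44.5 to 59.3 CPM in females and 62.5 to 73.4 in males (0.34 ± 0.06, adjusted p = 0.0043). Its paralog Atp5g3 was higher in males too (0.31, adjusted p = 0.0065). Among the catalytic or core subunits named for levels, Atp5a1 (0.17), Atp5b (0.15), Uqcrc1 (0.20) and Uqcrfs1 (0.20) were higher by smaller amounts. Ndufs1, a core subunit of complex I from the same list, did not pass, at 171 to 201 CPM in females and 170 to 186 in males.

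The X-linked members did not pass. Ndufa1 had 20.3 to 33.9 CPM in females and 28.6 to 37.3 in males (0.28 ± 0.09, adjusted p = 0.051), Ndufb11 was at 0.09 ± 0.09 (adjusted p = 0.50) and Cox7b at -0.01 ± 0.07 (adjusted p = 0.92). Ndufa1 passed under 6 other settings, among them DESeq2 (adjusted p = 0.023) and the fit without library 958 (adjusted p = 0.0055).

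The same contrast called no subunit gene in the cortex, where 0.0817% of all genes were called, or in the retina, where 0.149% were. At an unadjusted p under 0.05 there were 3 genes in the cortex and 5 in the retina, and the share of all genes under that limit is not given. DESeq2 called 0 in both. The smallest p in the cortex were those of Ndufb7 (0.16 ± 0.05, adjusted p = 0.42), Cox6b2 (0.77), Atp5c1 (-0.08), Cox7a2 (-0.10) and Ndufs1 (-0.07). Those in the retina were Cox8b (1.32 ± 0.42, adjusted p = 0.22), Cox6b2 (0.42), Uqcr10 (0.15), Atp5sl (-0.22) and Uqcr11 (0.14). A test of the difference itself, added after the data were seen, gave 15 genes with a larger male excess in the hippocampus than in the cortex and 0 with a smaller one (2.55% of all genes differed). Against the retina it gave 19 larger and 2 smaller (12.5% of all genes). For Cox8a the sex difference in the hippocampus exceeded that in the cortex by 0.49 (adjusted p = 0.022) and that in the retina by 0.42 (adjusted p = 0.019).

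Several measures moved with sex in the hippocampus. The column names number all females before all males, so sex and this order cannot be told apart. Sample numbers run from females to males in the cortex and retina as well. Short transcripts were higher in males among other genes too, with medians of 0.14 below 500 bases, 0.12 from 500 to 1000, 0.07 from 1000 to 2000 and -0.15 above 8000. The subunit genes had 0.28 (9 genes), 0.20 (46 genes) and 0.11 (20 genes) in the first 3 of these bins, and 0.09 over the 4 genes from 2000 to 4000, the first and last of these being thinly filled. With the length trend removed, 15 genes were higher and 3 lower, with a median of 0.04, and 15 of those 18 were among the 31. Under that setting 16.8% of all genes tested differed. Of 77 cytosolic ribosomal protein genes 34 were higher in males and 0 lower (median 0.21), of 17 glycolytic genes 14 were higher, of 76 mitochondrial ribosomal protein genes 12 were higher and 2 lower, and of 17 genes of the cycle 2 were higher.

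Cell markers moved as well. The 15 choroid plexus genes had a median of -2.29, with none called, and summed to 97.9 to 3050 CPM in females and 78.7 to 1424 in males, with no marker at 0 throughout. The 3 red cell genes tested were higher in males and summed to 11.7 to 53.3 CPM in females and 39.4 to 80.8 in males. Of 7 oligodendrocyte and 7 microglial markers 3 each were higher in males, of 11 neuronal markers 3 were higher and 1 lower, and of 7 astrocyte markers 2 were higher. Total counts overlapped, at 31154309 to 38543218 in females and 33589270 to 44153244 in males. Without the libraries rich in choroid plexus transcripts, 49 subunit genes were higher and 1 lower, the 31 among them, and 26.2% of all genes tested differed. Without library 957, 21 were higher and 1 lower, with a median of 0.15, and 9.85% of all genes tested differed. Without vehicle male 963, 18 were higher, all among the 31, and 9.54% of all genes tested differed. The part of these measures in the sex difference was not tested.

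**Figure D5:**
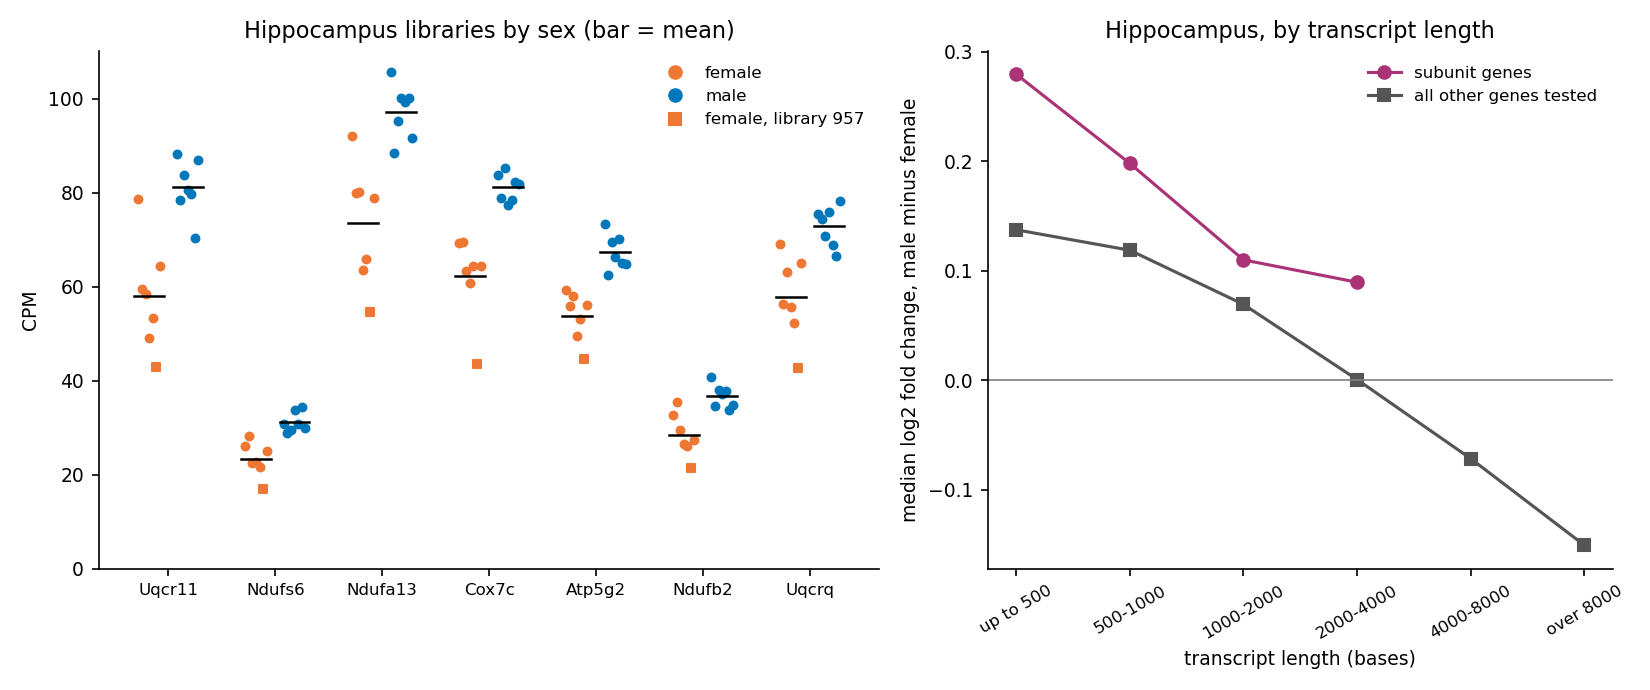
Left, CPM (y axis) in each hippocampus library of the named subunit genes (x axis), females and males in different colours, with bars at the means; right, median log2 fold change, male minus female (y axis), by transcript length in bases (x axis), for the subunit genes and all other genes. Males lie above females with no overlap for Ndufs6, Cox7c and Atp5g2, as they do for 2.32% of all genes tested. Both curves on the right fall with length, from 0.28 for the subunit genes and 0.14 for other genes below 500 bases.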

How the data were processed

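The deposited tables hold expected counts per gene, as the authors made them, on RefSeq gene models per the file headers. GRCm38 and DESeq are named in the submitters' processing notes. Neither the labels nor the headers name an aligner, a counting tool or a strand setting. Of the values above 0, 20.55% were whole within 0.001, and all were rounded to whole numbers. The cortex library numbered 962 was left out.

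Within each tissue, edgeR 4.0.16 (R 4.3.3, limma 3.58.1) was fitted to the 4 groups of sex and treatment, with trimmed-mean scaling and its filter on low counts (minimum count 10), and 1 joint fit of the 43 libraries gave the tissue contrasts. The quasi-likelihood test was adjusted by Benjamini-Hochberg over all genes tested, with a threshold of 0.05. CPM are scaled by the joint fit's library sizes. Levels per kilobase use the shortest principal transcript of GENCODE M21. Scripts were tested on simulated data. Alternatives were other scalings, no filter, DESeq2 1.42.0, each sample number left out, libraries rich in choroid plexus or lens transcripts left out, the sample number as a block and, added after the data were seen, removal of a length trend. The labels do not say that samples of a group are separate mice, so p-values measure the spread between these samples, which may be technical.

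Named genes were catalytic or core subunits and the paralogous isoform sets for levels, up to 3 of the greatest differences each way per complex for tissues, the 10 greatest past the threshold for sex and treatment (the 5 smallest p where fewer than 5 passed) and the X-linked members. Some further genes were named after their values were seen. The members and the lists were chosen with earlier results of these data known.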

Additional observations from a re-analysis of the deposited data

Results flagged for a closer look

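A single library stood apart from its group in 11 of 196 groups examined (a gap to the nearest library beyond Dixon's limit), and chance flags about 1 in 20. In the cortex of tamoxifen females, library 951 had 462 CPM of Cox4i1 where the others had 406 to 413, and 1122 CPM of Atp5a1 where the others had 1055 to 1060. Library 953 had 215 CPM of Ndufa4 there, against 225 to 227. Among cortex vehicle males, library 963 had 278 CPM of Uqcrc1, against 256 to 259.

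In the hippocampus of tamoxifen females, library 951 had a complex IV mean log2(CPM + 1) of 5.28, against 5.0 to 5.03. It also had 3.33 CPM of Cox6a2, against 2.66 to 2.72, and 3.43 CPM of Cox8b, against 0.237 to 0.339, in a library whose choroid plexus genes summed to 2703 CPM. Library 954 had 89.2 CPM of Uqcrfs1, against 101 to 103. In tamoxifen males, library 961 had 808 CPM of Atp5a1, against 843 to 849, and library 959 had 158 CPM of Cox6b1, against 130 to 133. In the retina of vehicle males, library 966 had 199 CPM of Ndufa4, against 226 to 229.

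The sex difference of the hippocampus differed from that of the cortex, by a test of the difference itself, for 15 of the 78 genes, and from that of the retina for 21. Against the cortex, the male excess was larger by 0.49 for Cox8a, 0.45 for Ndufb2, 0.45 for Cox7c, 0.44 for Ndufb3, 0.42 for Ndufs6, 0.42 for Uqcr11, 0.41 for Ndufa13 and 0.41 for Atp5g2 on the log2 scale (edgeR adjusted p from 0.0071 to 0.046). Against the retina it was larger by 0.42 for Cox8a, 0.38 for Ndufb3, 0.37 for Ndufb2, 0.37 for Cox7c, 0.36 for Uqcr11, 0.35 for Ndufs6, 0.34 for Ndufa13 and 0.25 for Atp5g2 (adjusted p from 0.015 to 0.044).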

How the results depend on the processing

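Of the results on single genes, 3120 values kept their direction and side of the threshold, 19 lost and 8 gained a call, and 12 changed sign. With the length trend removed, 44 genes differed between hippocampus and cortex (median -0.12) and 18 between the sexes in the hippocampus (median 0.04), the retina minus hippocampus median was -0.25 and the cortex tamoxifen median in males 0.0085. Sex calls in the hippocampus numbered 50 without libraries rich in choroid plexus or lens transcripts and 18 to 46 with 1 number left out. Cortex tamoxifen calls were 1 by DESeq2 (178 of all 14680 genes tested) and 0 to 1 with 1 number left out. Without number 957 the hippocampus tamoxifen median in females was 0.03, and without 958 the median difference of the effects between sexes was -0.21. The retina minus hippocampus median was 0.0497 with library totals alone. With the sample number as a replicate block, 69 genes differed between hippocampus and cortex, 68 between retina and cortex and 58 between retina and hippocampus, and the effect of tamoxifen differed between tissues for 0. The shares of all genes called in these block fits are not given, so these counts have no background. The labels do not say that a shared number is 1 mouse. Deviations of same-numbered samples from their group means, over 13790 genes, correlated at -0.198 to 0.286 between hippocampus and cortex, -0.0603 to 0.15 between retina and cortex and -0.116 to 0.0703 between retina and hippocampus. The medians were 0.076, 0.0473 and -0.0291. Samples correlated best with their own number in 1 of 13, 6 of 14 and 0 of 14 cases. The 6 of 14 cases are a hint of pairing between retina and cortex, which the other counts did not show. These values do not settle whether samples are paired, and the main fit used no block. Sign changes were Ndufb11 in hippocampus sex (length trend -0.0362, and -0.0046 to 0.166 with 1 number left out, below 0 without 957), Cox7b there (0.0363 without rich libraries, and -0.0876 to 0.0255 with 1 left out, above 0 without 955, 958 or 964), Ndufb11 in retina sex (0.0085 without rich libraries, and -0.0513 to 0.013 with 1 left out, above 0 without 958 or 966), Cox7a1 in the cortex difference of effects (-0.0585 without rich libraries), and with the length trend removed Atp5l (-0.0413) and Atp5e (-0.0745) between retina and hippocampus. The cause was not tested. Depth limits Cox8b, Cox7b2, Cox8c and retinal Cox6a2.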
